A study of Mus musculus with 39 samples.

Results

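The 37 genes described here encode the steps that carry glucose to lactate, the hypoxia-inducible factor (HIF) and its oxygen-sensing hydroxylases, genes that HIF is known to induce, the collagen prolyl hydroxylases and the entry to hexosamine synthesis. They were chosen by gene symbol from a list made for this description, and all 37 were found among the 30012 rows of the count table. The list was made with earlier results of these data known, so shares of calls among the 37 describe them and do not test them. All 37 passed the filter on low counts, which left 14419 genes to test. The cells were lung fibroblasts of wild-type C57BL/6 mice whose age was not given. Magnetic beads had removed the cells positive for CD45, CD31, EpCAM, CD146 and Ter119, and the rest were grown with serum and then kept without it for 24 h. C1q, which starts the classical pathway of complement, was added at a dose of 1, 10 or 100 µg/ml, and cells were collected 2, 24, 48 or 72 h later. The 12 C1q groups and 1 untreated group held 3 libraries each, 39 in all, in which the 5′ ends of polyadenylated RNA were counted. Untreated cells were collected at 0 h, so C1q and time in culture cannot be told apart in a comparison with them, and no group received buffer without C1q. The labels name no separate cultures or animals behind the replicates, so a p-value here reflects library-to-library spread, part of which may be technical.

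Library totals ran from 1806106 to 3012518 counts. Levels are given in CPM, counts scaled to the size of the library and corrected by the trimmed mean of M values. They compare libraries for the same gene or the same sum of genes. How evenly the 5′ ends of different genes were captured was not tested, so levels are not compared between genes. Replicate 3 of 1 µg/ml at 24 h lay far from its group, with a chi-square per degree of freedom of 8.48 and 8.02 against its replicates, where the other 37 replicate pairs lay between 1.31 and 4.34. The 8 fibroblast markers summed to 7521 to 9342 CPM at 72 h and 5425 to 6145 CPM in untreated cells. The 12 macrophage markers summed to 948 to 1663 CPM at 72 h, against 264 to 295 CPM in untreated cells. The 10 epithelial markers summed to 97.9 to 133 CPM at 72 h against 522 to 616 CPM, and the 8 cell cycle markers to 200.4 to 265 CPM against 1063 to 1159 CPM. Lymphocyte and erythroid markers lay between 0 and 3.17 CPM in every library, with Cd3e at 6 counts and Hba-a1 at 2 counts over all 39. These marker sums move with time in the same libraries as the genes below, and their part in the results was not tested. In bulk RNA, fewer cells of a type and less RNA per cell cannot be told apart.

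Glycolysis splits glucose into pyruvate, and lactate dehydrogenase turns pyruvate into lactate. When oxygen is low, the prolyl hydroxylases of the Egln family no longer mark HIF-1α for degradation, and HIF raises transcription of glucose transporters, most glycolytic enzymes and genes of mitophagy, matrix hydroxylation and vascular signalling. HIF activity is set largely through the protein, so the RNA of Hif1a is not a measure of it. In fibroblasts, glycolysis is known to increase during activation, and glutamine-fructose-6-phosphate transaminase draws a glycolytic intermediate into the hexosamine pathway, which supplies sugars for glycoproteins and hyaluronan.

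The promoters show what many of these genes share. RefSeq promoters of GRCm38.p6 were matched by symbol for 34 of the 37 genes, as 47 start sites, and the 250 bases before each start were searched on both strands for ACGTG and GCGTG, the core of the HIF binding site. The letters ACGTG also lie within the E-box CACGTG, which other factors bind. At least 1 match was found in 83.0% of the 47 windows and in 38.6% of all 32851 windows of the table. ACGTG was present in 48.9% against 16.6%, and GCGTG in 57.4% against 28.2%. The windows of these genes were also richer in G and C, with a median of 61.6% against 52.4% over all windows. Genes that HIF is known to induce were picked for the list, so a higher share follows in part from that choice. Some windows of the same gene overlap, as for Aldoa and Eno1, and are not independent. A match describes the letters and is not evidence of binding in these cells.

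The stretches below are 60 bases from genes that the results turn on, each with 1 start site in the table, 5′ to 3′ on the strand of the gene, with matches in capitals (CACGT and CACGC are the same motifs on the other strand). Slc2a1, Hk2 and Gfpt2 differed from untreated cells at 2 h, Gapdh, Pgk1 and Pgam1 at the later times, and Adm between doses.
Slc2a1, chr4:119108682-119108741, strand +: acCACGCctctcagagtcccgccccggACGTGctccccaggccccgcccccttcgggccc
Hk2, chr6:82774474-82774533, strand -: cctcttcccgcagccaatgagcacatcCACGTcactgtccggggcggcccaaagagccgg
Gapdh, chr6:125165785-125165844, strand -: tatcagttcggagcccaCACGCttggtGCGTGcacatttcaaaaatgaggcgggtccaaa
Pgk1, chrX:106186942-106187001, strand +: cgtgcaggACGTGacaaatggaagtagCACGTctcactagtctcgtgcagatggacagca
Pgam1, chr19:41911730-41911789, strand +: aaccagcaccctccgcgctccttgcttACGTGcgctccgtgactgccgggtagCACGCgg
Adm, chr7:110627576-110627635, strand +: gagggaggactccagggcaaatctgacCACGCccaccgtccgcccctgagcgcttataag
Gfpt2, chr11:49793905-49793964, strand +: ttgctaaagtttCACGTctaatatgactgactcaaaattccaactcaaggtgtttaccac
Tpi1, chr6:124814159-124814218, strand -: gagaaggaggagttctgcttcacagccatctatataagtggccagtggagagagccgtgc
Tpi1, shown as the bases next to its start, had no match in its 250 bases, and neither had Gpi1 or Eno2. At 24 h the RNA of Tpi1 was lower than in untreated cells, at a log2 difference of -0.60 ± 0.07. Gpi1 was lower as well, and Eno2 was not called. Pgk1, with 2 matches in the printed stretch, stood at -0.86 ± 0.07. Whether the matches go with the changes in RNA was not tested.

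Against untreated cells, calls among the glycolysis and hypoxia genes were few and mostly higher at 2 h, and more numerous and mostly lower from 24 h. At 2 h, a glucose transporter, a hexokinase and both hexosamine entry enzymes were among 6 genes that rose, and 1 gene fell. From 24 h, 19 of the 37 genes were lower and 3 higher, and at 48 h 16 were lower and 5 higher. By 72 h, 13 were lower and 6 higher. A call here is an adjusted p under 0.05 in edgeR's quasi-likelihood test over all 14419 genes, and folds are log2 differences ± SE of the mean of the 3 doses over untreated cells, fitted with 3 libraries per group. Over all tested genes, 6.21% were called higher and 4.48% lower at 2 h, 16.3% and 20.5% at 24 h, 20.9% and 22.5% at 48 h, and 23.6% and 25.3% at 72 h. From 24 h on, the share of lower calls among the 37 was above that background and the share of higher calls below it, while at 2 h the share of higher calls was above it. The median log2 difference of the 37 genes was -0.01, -0.31, -0.19 and -0.07 at the 4 times, and that of all tested genes was -0.03, 0.03, 0.03 and 0.03. These 4 comparisons share the untreated libraries.

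**Figure D1:**
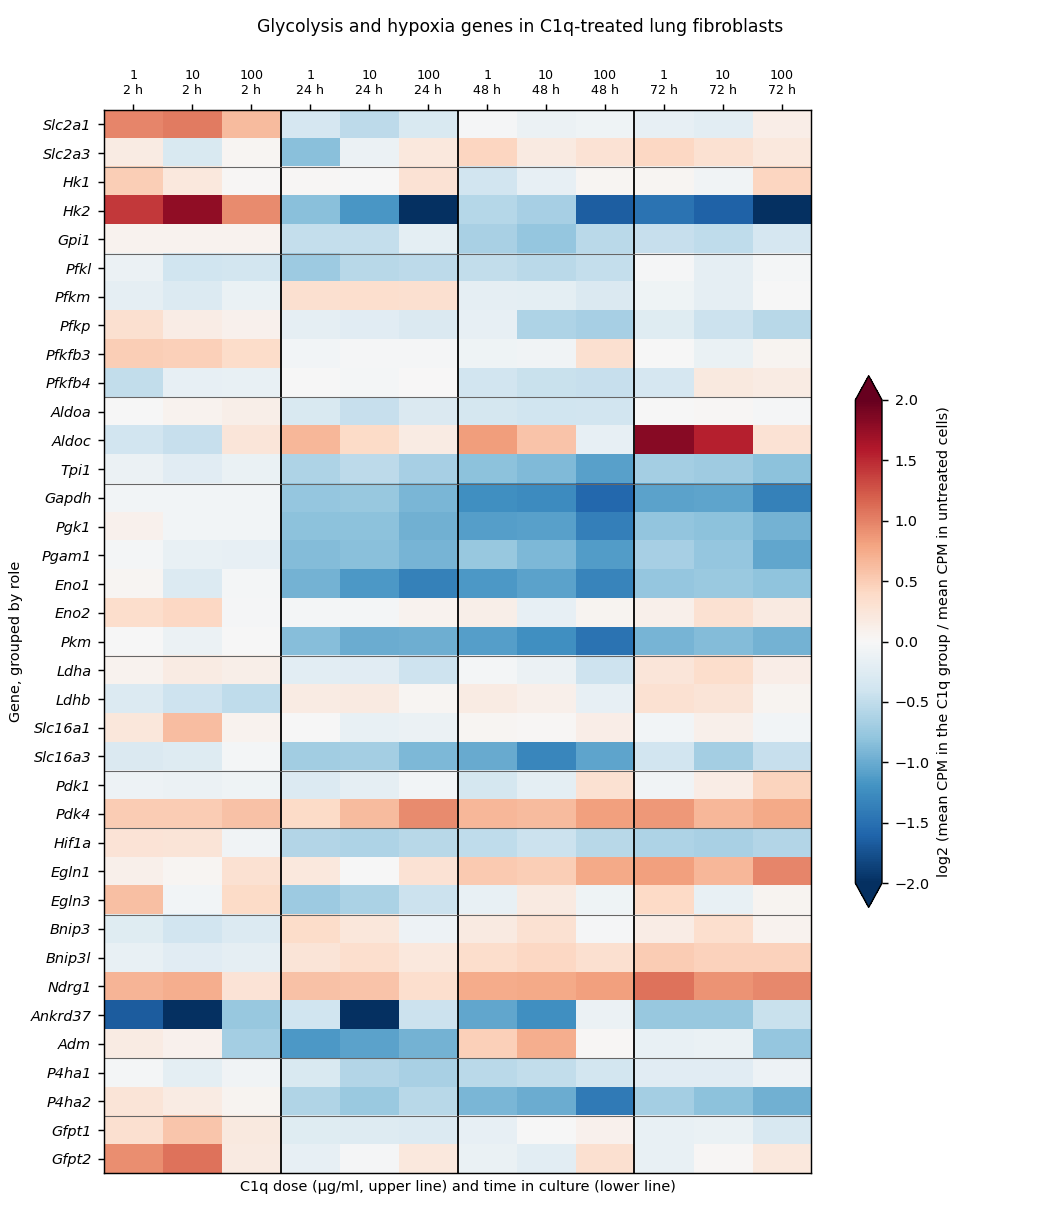
Log2 ratio of the mean CPM of each C1q group to the mean CPM of untreated cells (red above 0, blue below) for the 37 genes (rows, by role) in the 12 C1q groups (columns, by time and dose, 3 libraries each). The block from Tpi1 to Pkm is blue from 24 h on, Eno2 apart. Slc2a1, Hk2 and Gfpt2 are red at 2 h, and Aldoc is deep red only in the columns of 1 and 10 µg/ml at 72 h.

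At 2 h, RNA of 1 of the 2 glucose transporters and 1 of the 2 hexokinases was higher. Slc2a1, which encodes the glucose transporter GLUT1, had 234, 215 and 234 CPM at 1 µg/ml, 265, 191 and 264 CPM at 10 µg/ml and 201, 176 and 164 CPM at 100 µg/ml after 2 h, against 115, 108 and 125 CPM in untreated cells. Every C1q library at 2 h lay above every untreated library, and the log2 difference was 0.88 ± 0.11 (adjusted p = 1.35e-08). At 24 h Slc2a1 was below untreated cells, at -0.39 ± 0.10 (100 µg/ml alone was at -0.30, adjusted p = 0.0625), and at 48 and 72 h it stood at -0.08 ± 0.11 and -0.08 ± 0.10, short of the threshold. Slc2a3, the transporter GLUT3, had 1 to 13 counts per library and passed the threshold in none of these comparisons.

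Hk2, the inducible hexokinase bound to mitochondria, had the largest fold of the 37 genes against untreated cells at 2 h among those that rose. It had 45.05, 61.1 and 59.8 CPM at 1 µg/ml, 81.9, 72.2 and 60.3 CPM at 10 µg/ml and 35.7, 41.7 and 42.7 CPM at 100 µg/ml, against 24.4, 23.7 and 14.5 CPM in untreated cells, and the groups did not overlap. The log2 difference was 1.38 ± 0.15 (adjusted p = 1.78e-09). At the later times the direction turned, with -1.35 ± 0.19 at 24 h, -0.96 ± 0.18 at 48 h and -1.73 ± 0.20 at 72 h. At 72 h its 9 C1q libraries held 4.05 to 9.10 CPM, against 14.5 to 24.4 CPM in untreated cells. Hk1, the widely expressed hexokinase, stood between -0.17 and 0.25 at the 4 times and was not called. Gpi1, phosphoglucose isomerase, was lower from 24 h, at -0.39 ± 0.076, -0.65 ± 0.076 and -0.44 ± 0.076. At 24 h the mean of 1 and 10 µg/ml stood at -0.48, and 100 µg/ml alone at -0.20, where it was not called (adjusted p = 0.0916).

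Of the 5 genes of the phosphofructokinase step and its regulators, 3 were called against untreated cells at some time. Over all tested genes, 23.6% were called higher and 25.3% lower at 72 h alone. The share of all tested genes called at any of the times is not given here. The count of 3 therefore describes these genes and has no background beside it. Pfkl, the liver-type subunit, was lower at 24 h and 48 h, at -0.59 ± 0.11 and -0.49 ± 0.12, and stood at -0.07 ± 0.11 at 72 h. Pfkp, the platelet-type subunit, was lower at 48 and 72 h, at -0.47 ± 0.15 and -0.41 ± 0.15, the second of which lost its call without the third untreated library (adjusted p = 0.054). For the mean of 1 and 10 µg/ml neither was called, at -0.38 (adjusted p = 0.0502) and -0.34 (adjusted p = 0.0700). Pfkm, the muscle-type subunit, was not called against untreated cells, though it was higher at 24 h than at 2 h by 0.51 ± 0.10. Of the enzymes that set the level of fructose 2,6-bisphosphate, the allosteric activator of this step, Pfkfb3 rose at 2 h by 0.43 ± 0.11, with 36.02 to 56.4 CPM in C1q libraries against 32.4 to 35.7 CPM. That call was lost without the third untreated library (adjusted p = 0.0788) and for 100 µg/ml alone, at 0.34 (adjusted p = 0.171). Pfkfb4, with 7 to 36 counts per library, was not called.

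Of the 7 genes from triose phosphate to pyruvate, 6 were lower than in untreated cells at each of 24, 48 and 72 h. Gapdh, which encodes glyceraldehyde-3-phosphate dehydrogenase, had 617, 567 and 549.6 CPM at 1 µg/ml, 548, 539 and 611 CPM at 10 µg/ml and 470.4, 447 and 447 CPM at 100 µg/ml after 48 h, against 1346, 1406 and 1299 CPM in untreated cells. Its highest C1q library at 48 h was below the lowest untreated one, and the log2 difference was -1.35 ± 0.066 (adjusted p = 4.43e-22). At 2 h it had stood at -0.05 ± 0.069 and was not called. It was lower at 24 h and 72 h as well, at -0.82 and -1.16 on the log2 scale. Gapdh has many processed pseudogenes in the mouse genome, and how reads shared with them were counted was not given.

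Pgk1 and Pkm, the kinases that make ATP in glycolysis (the isoforms of Pkm are 1 row of the table), and the mutase Pgam1 followed the same course. Pgk1 had 116 to 154 CPM in the 9 libraries of 48 h against 300.2 to 329.5 CPM in untreated cells, a log2 difference of -1.19 ± 0.071. Pkm had 453 to 720.0 CPM against 1290.5 to 1383 CPM, a difference of -1.27 ± 0.084, and Pgam1 had 270.1 to 391 CPM against 577 to 610.4 CPM, a difference of -0.92 ± 0.068. For none of the 3 did the groups overlap, and all 3 were still lower at 72 h, at -0.86 ± 0.07, -0.92 ± 0.085 and -0.82 ± 0.068.

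Eno1, the ubiquitous enolase, was lowest at 24 and 48 h. It had 1085, 889 and 808 CPM at 1 µg/ml, 880.4, 818 and 731 CPM at 10 µg/ml and 645, 733 and 730.2 CPM at 100 µg/ml after 24 h, against 1804, 1854 and 1723 CPM in untreated cells. The groups did not overlap, and the log2 difference was -1.15 ± 0.094 at 24 h, -1.18 ± 0.094 at 48 h and -0.78 ± 0.096 at 72 h. Reads may be shared with Eno1b, a near-identical copy counted separately, which was lower as well, at -1.16 ± 0.11 and -0.998 ± 0.11 at 24 and 72 h. Eno2, the enolase of neurons, was not called at any of the 4 times and stood at most 0.25 above untreated cells, at 2 h. Tpi1, triose phosphate isomerase, stayed lower at 48 and 72 h, at -0.93 ± 0.07 and -0.74 ± 0.07. Aldoa, the main aldolase, was lower at 24 and 48 h, at -0.35 ± 0.089 and -0.38 ± 0.089, and stood at -0.01 ± 0.09 at 72 h.

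The 17 glycolytic enzymes from hexokinase to lactate dehydrogenase together held 4300.1 ± 295 CPM at 1 µg/ml, 4347 ± 292 CPM at 10 µg/ml and 3984 ± 217 CPM at 100 µg/ml after 72 h, against 6875 ± 226 CPM in untreated cells (SD, n = 3 each). At 48 h the sums were lower still, at 3645 ± 293, 3532 ± 107 and 3060 ± 70.0 CPM at the 3 doses. At 2 h they were 6911 ± 169, 6382 ± 602 and 6727 ± 279 CPM, and each group overlapped the 6669.8 to 7118 CPM of the untreated libraries.

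**Figure D2:**
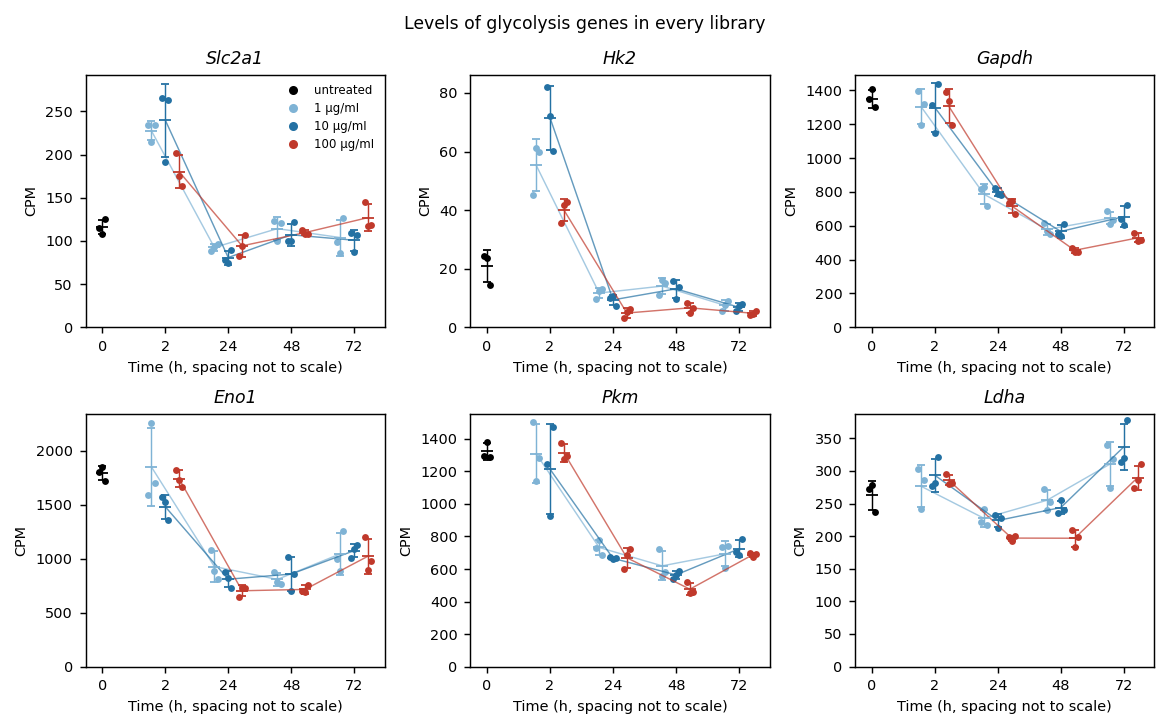
CPM of 6 glycolysis genes in every library (points) by time and C1q dose, with group means and SD (bars, n = 3), untreated cells at 0 h. Slc2a1 and Hk2 peak at 2 h, whereas Gapdh, Eno1 and Pkm step down between 2 and 24 h, and Ldha dips at 24 and 48 h and lies higher again at 72 h.

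Genes of lactate formation and export differed from each other. Ldha, the subunit that favours lactate formation, was lower at 24 h, at -0.29 ± 0.076, and higher at 72 h, at 0.25 ± 0.077 (adjusted p = 0.00692), with 274 to 378 CPM in C1q libraries and 238 to 279 CPM in untreated cells, which overlap. The call at 72 h was lost without the third untreated library (adjusted p = 0.192), and that at 48 h, a difference of -0.19 ± 0.076, was lost without any of 5 of the 12 libraries compared. For 100 µg/ml alone Ldha stood at 0.14 at 72 h (adjusted p = 0.218), and for the mean of 1 and 10 µg/ml at -0.08 at 48 h (adjusted p = 0.475). Ldhb stood between -0.40 and 0.20 and was not called against untreated cells. Slc16a3, the lactate exporter MCT4, fell at 24, 48 and 72 h, at -0.74 ± 0.14, -1.11 ± 0.14 and -0.50 ± 0.13, with 12.6 to 24.5 CPM at 48 h against 37.5 to 45.8 CPM in untreated cells. Slc16a1, the transporter MCT1, was not called for the mean of the doses, though at 2 h the mean of 1 and 10 µg/ml was higher, at 0.40 (adjusted p = 0.0237).

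The kinases that switch off pyruvate dehydrogenase differed from each other. Pdk4, induced by fasting and by fatty acids in many tissues, was higher at 24, 48 and 72 h, at 0.63 ± 0.19, 0.68 ± 0.19 and 0.75 ± 0.19. It had 15.3, 18.2 and 18.2 CPM at 1 µg/ml, 15.8, 15.3 and 13.98 CPM at 10 µg/ml and 15.2, 19.5 and 13.5 CPM at 100 µg/ml after 72 h, against 12.4, 8.42 and 7.66 CPM in untreated cells, with no overlap. The call was kept at 72 h whichever library was left out, whereas at 24 and 48 h it was lost without the third untreated library, and at 24 h also without the second and for the mean of 1 and 10 µg/ml, at 0.49 (adjusted p = 0.0538). Pdk1, a HIF target with 9 to 39 counts per library, was not called and stood at 0.18 ± 0.22 at 72 h.

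Hif1a RNA was lower from 24 h. It had 87.4, 94.1 and 95.5 CPM at 1 µg/ml, 85.3, 98.1 and 87.3 CPM at 10 µg/ml and 99.3, 93.1 and 90.9 CPM at 100 µg/ml after 72 h, against 144, 147 and 132 CPM in untreated cells. No library overlapped between the groups, and the log2 difference was -0.58 ± 0.072, -0.49 ± 0.073 and -0.61 ± 0.073 at 24, 48 and 72 h. At 2 h the mean of the doses did not differ past the threshold, though the mean of 1 and 10 µg/ml did, at 0.27 (adjusted p = 0.0129). Egln1, the main prolyl hydroxylase that marks HIF for degradation, was higher at 48 and 72 h, at 0.59 ± 0.12 and 0.81 ± 0.12. Its 9 libraries at 72 h held 75.98 to 116 CPM, above the 43.9 to 58.1 CPM of untreated cells. Egln3, with 6 to 22 counts per library, was not called against untreated cells.

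Genes that HIF is known to induce did not move as 1 group. Ndrg1, a differentiation and stress gene, was the one called higher at all 4 times, at 0.57 ± 0.11, 0.50 ± 0.10, 0.78 ± 0.10 and 0.99 ± 0.10. At 2 h the call rests on the lower doses, at 0.71 for the mean of 1 and 10 µg/ml, since 100 µg/ml alone stood at 0.29 (adjusted p = 0.224). At 72 h it had 76.7, 76.6 and 87.3 CPM at 1 µg/ml, 71.3, 76.4 and 64.97 CPM at 10 µg/ml and 72.99, 71.7 and 77.4 CPM at 100 µg/ml, against 37.7, 41.6 and 34.5 CPM in untreated cells, with no overlap. Bnip3l, a receptor of mitophagy, was higher from 24 h, at 0.27 ± 0.069, 0.36 ± 0.07 and 0.48 ± 0.07, and its pseudogene Bnip3l-ps, which may share its reads, stood at 0.71 ± 0.19 at 72 h. Bnip3, the related receptor, was not called and lay between -0.29 and 0.19. Ankrd37, an ankyrin repeat gene, was lower at 2 h, at -1.50 ± 0.40, on 0 to 13 counts per library, and that call was lost without the third untreated library (adjusted p = 0.109). Its call at 24 h, -0.93 ± 0.37, was lost without any of 8 of the 12 libraries, and 100 µg/ml alone was not called at either time, at -0.78 and -0.44. The 24 h call was lost under 4 of 6 other settings, among them DESeq2 and no filter on low counts.

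Adm, which encodes the vasodilator peptide adrenomedullin, was lower at 24 h, higher at 48 h than at 24 h and lower again at 72 h. At 2 h, 100 µg/ml alone was already below untreated cells, at -0.67 (adjusted p = 7.58e-07), while the mean of 1 and 10 µg/ml stood at 0.13. It had 143, 135 and 119 CPM at 1 µg/ml, 144, 135 and 142 CPM at 10 µg/ml and 167, 142 and 146 CPM at 100 µg/ml after 24 h, against 279, 305 and 295 CPM in untreated cells, a log2 difference of -1.05 ± 0.071 (adjusted p = 1.15e-16). At 48 h it had 369, 449 and 404 CPM at 1 µg/ml, 501, 470.5 and 478 CPM at 10 µg/ml and 290.1, 297 and 303 CPM at 100 µg/ml. All 9 libraries at 48 h lay above all 9 at 24 h, and the difference between these times was 1.46 ± 0.052 (adjusted p = 3.93e-26). Against untreated cells the mean of the doses at 48 h was higher, at 0.40 ± 0.073, but that rests on 1 and 10 µg/ml, since 100 µg/ml alone stood at 0.02. At 72 h Adm was lower than at 48 h, at -0.75 ± 0.051, and lower than in untreated cells, at -0.35 ± 0.071. That last call rests on 100 µg/ml, at -0.77 alone, while the mean of 1 and 10 µg/ml stood at -0.14 (adjusted p = 0.145).

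P4ha1 and P4ha2 encode subunits of collagen prolyl 4-hydroxylase, which stabilises the collagen triple helix, and neither was called at 2 h. P4ha2 fell at 24, 48 and 72 h, at -0.61 ± 0.13, -1.08 ± 0.14 and -0.80 ± 0.13, with 12.5 to 22.8 CPM at 48 h against 33.3 to 52.1 CPM in untreated cells. P4ha1 fell at 24 and 48 h, at -0.51 ± 0.11 and -0.47 ± 0.11, and stood at -0.19 ± 0.11 at 72 h.

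At the entry of the hexosamine pathway, both transaminase genes rose at 2 h. Gfpt2 had 171, 168 and 171 CPM at 1 µg/ml, 183, 182 and 199.9 CPM at 10 µg/ml and 94.7, 110.1 and 98.6 CPM at 100 µg/ml, against 87.4, 92.1 and 87.3 CPM in untreated cells. Every C1q library lay above the untreated ones, with those of 100 µg/ml nearest to them. The log2 difference of the mean of the doses was 0.74 ± 0.079 (adjusted p = 9.38e-10). The mean of 1 and 10 µg/ml was higher by 1.01 (adjusted p = 2.19e-13), and 100 µg/ml alone stood at 0.19 (adjusted p = 0.309). Gfpt1, the widely expressed enzyme, rose by 0.36 ± 0.10 at 2 h, a call that was lost without the first or the second untreated library and for 100 µg/ml alone, at 0.21 (adjusted p = 0.404). Its call at 24 h, -0.26 ± 0.10, was lost without any of 6 of the 12 libraries. That call was also lost under 6 of 7 other settings, among them DESeq2 and no filter on low counts.

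The comparison of 100 with 1 µg/ml at each time holds time in culture fixed, and it asks how these genes depend on the dose of C1q. C1q and anything else in its stock cannot be told apart. At 2 h, 3 of the 37 genes were lower and 0 higher at 100 µg/ml, where 1.94% of all tested genes were lower and 1.28% higher. At 24 h, 3 were lower and 2 higher, where 7.21% and 3.77% of all were. At 48 h, 7 were lower and 1 higher, against 6.44% and 3.82%, and at 72 h 4 were lower and 1 higher, against 6.51% and 4.99%. The share of lower calls was above the background at 2, 48 and 72 h and near it at 24 h, and that of higher calls was near or below it except for the 2 genes at 24 h. The calls fell on 12 genes in all. A share of all tested genes called at 1 or more times is not given here, so that count has no background beside it.

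Gfpt2 reversed its dose order between 2 h and the later times. At 2 h it was lower at 100 than at 1 µg/ml, with the values above, a log2 difference of -0.75 ± 0.091 (adjusted p = 1.57e-07). At 24 h it had 104, 108 and 97.2 CPM at 100 µg/ml against 74.9, 77.1 and 85.97 CPM at 1 µg/ml, a log2 difference of 0.38 ± 0.094. At 48 h it had 118, 98.9 and 115 CPM against 83.9, 78.3 and 80.7 CPM, a difference of 0.45 ± 0.096. At 72 h it had 89.7, 104 and 116 CPM against 78.4, 88.2 and 73.2 CPM, a difference of 0.37 ± 0.097. The libraries of the 2 doses did not overlap at any of the 4 times. The dependence of the dose difference on time was itself called (adjusted p = 2.17e-09, 3 degrees of freedom), and it changed by 1.13 ± 0.13 from 2 h to 24 h. The call at 24 h was lost with no filter on low counts and when the fit held only the libraries compared. The call at 72 h was lost with no filter as well. It was also lost without the third library of either dose, with adjusted p up to 0.0975.

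Adm was lower at 100 µg/ml at 3 of the 4 times. It had 199, 187 and 166 CPM at 100 µg/ml against 326, 339 and 325 CPM at 1 µg/ml after 2 h, a log2 difference of -0.84 ± 0.09 (adjusted p = 4.5e-09). At 48 h the levels given above differed by -0.46 ± 0.087. At 72 h it had 179, 172 and 164 CPM against 291, 247 and 260.1 CPM, a difference of -0.63 ± 0.091. The doses did not overlap at these 3 times. At 24 h the difference was 0.19 ± 0.093 and was not called. The dose difference depended on time (adjusted p = 1.28e-06), with a change of 1.04 ± 0.13 from 2 h to 24 h and of -0.65 ± 0.13 from 24 h to 48 h.

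**Figure D3:**
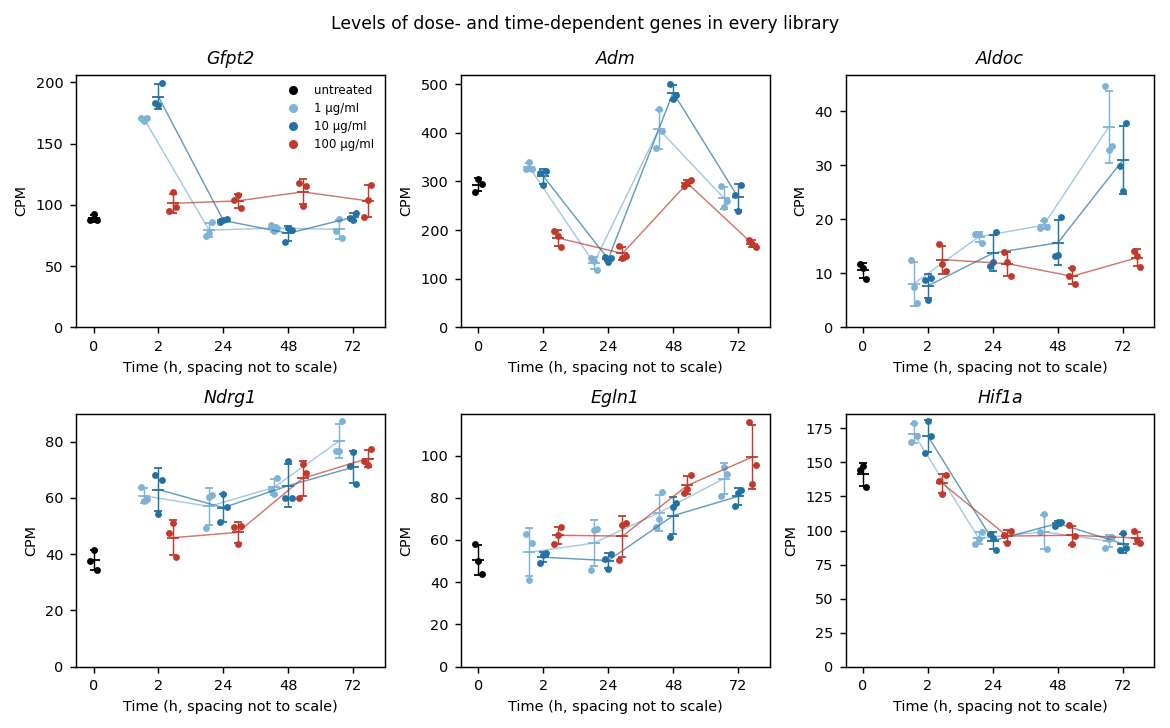
CPM of Gfpt2, Adm, Aldoc, Ndrg1, Egln1 and Hif1a in every library (points) by time and C1q dose, with group means and SD (bars, n = 3), untreated cells at 0 h. Gfpt2 at 100 µg/ml lies below the lower doses at 2 h and its mean lies above theirs later, Adm at 100 µg/ml lies below them at 2, 48 and 72 h, and Aldoc climbs at 1 and 10 µg/ml but not at 100 µg/ml.

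Aldoc, the aldolase of brain and a minor form elsewhere, was above untreated cells at the lower doses at 48 and 72 h. At 72 h it had 14.2, 13.2 and 11.2 CPM at 100 µg/ml against 44.8, 32.9 and 33.5 CPM at 1 µg/ml, a log2 difference of -1.52 ± 0.21 (adjusted p = 1.27e-06). At 10 µg/ml it had 29.9, 25.2 and 37.8 CPM, and in untreated cells 11.6, 11.1 and 8.94 CPM. The mean of 1 and 10 µg/ml was above untreated cells by 0.70 at 48 h (adjusted p = 0.00993) and by 1.68 at 72 h (adjusted p = 2.23e-09), and at 72 h 100 µg/ml alone stood at 0.29 (adjusted p = 0.397). At 48 h 100 µg/ml was lower than 1 µg/ml as well, at -0.99 ± 0.26, a call that was lost without the third library of 100 µg/ml (adjusted p = 0.0529). The interaction with time was called (adjusted p = 0.000377), with a change of -2.16 ± 0.35 from 2 h to 72 h.

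Several marker sums were lower at 100 than at 1 µg/ml with no overlap, as Aldoc was. At 72 h the macrophage sum was 948 to 1169 CPM at 100 µg/ml, against 1281 to 1383 CPM at 1 µg/ml, and it reached 1663 CPM at 10 µg/ml. At 48 h it was 615 to 669.9 CPM at 100 µg/ml, against 723 to 791 CPM at 1 µg/ml. All 12 macrophage markers were called above untreated cells at 72 h. The 4 mesothelial markers summed to 258 to 297 CPM at 100 µg/ml, against 412 to 471 CPM at 1 µg/ml, at 72 h, and to 239.6 to 294 CPM against 348 to 405 CPM at 48 h. The 8 endothelial markers summed to 66.4 to 79.2 CPM against 89.4 to 119.8 CPM at 72 h, and to 48.1 to 65.2 CPM against 82.3 to 94.1 CPM at 48 h. Cell cycle markers summed to 200.4 to 208 CPM against 244 to 265 CPM at 72 h, and to 203 to 217 CPM against 309.8 to 328 CPM at 48 h. The fibroblast sum was higher at 100 µg/ml at 72 h, at 8593 to 9342 CPM against 7521 to 8113 CPM. At 48 h it was lower at 100 µg/ml, at 7255 to 7622 CPM against 7903 to 8486 CPM. It was lower at 24 h as well, at 5515 to 6219 CPM against 6903 to 8540 CPM. The part of these marker differences in the dose differences of the 37 genes at 48 and 72 h was not tested.

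Hk2 and several enzymes of the later steps were lower at the highest dose at 24 or 48 h. Hk2 had 3.17, 5.12 and 6.27 CPM at 100 µg/ml against 9.67, 12.2 and 13.1 CPM at 1 µg/ml after 24 h, a log2 difference of -1.23 ± 0.28. At 48 h it had 8.41, 4.99 and 6.48 CPM against 11.04, 16.2 and 14.96 CPM, a difference of -1.09 ± 0.28. The doses did not overlap at either time, and the call at 48 h was lost without the second library of 100 µg/ml (adjusted p = 0.0689). At 2 and 72 h the differences were -0.47 ± 0.16 and -0.64 ± 0.33 and were not called.

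Among the enzymes of the later steps at 48 h, 4 were lower at 100 than at 1 µg/ml, with log2 differences of -0.35 for Gapdh, -0.37 for Pgam1, -0.38 for Pkm and -0.38 for Ldha. Gapdh and Pgam1 were lower again at 72 h, at -0.29 ± 0.087 and -0.38 ± 0.089. For Pgam1 the libraries at 72 h held 298, 298 and 277 CPM at 100 µg/ml and 395, 382 and 359 CPM at 1 µg/ml. Pkm at 48 h and Gapdh at 72 h each lost the call without any of 3 of the 6 libraries. Pgam1 at 48 h lost it without the first library of 1 µg/ml (adjusted p = 0.0553) and Ldha without the second of 100 µg/ml (adjusted p = 0.0593). The 48 h results also rest on 2 of the 3 columns of 1 µg/ml, which were matched by serial number because their names are spelled differently, as were 7 of the 9 columns at 24 h. Without those columns, 1 µg/ml keeps 1 library at 48 h, so whether the calls at 48 h hold without them cannot be told.

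The remaining dose calls were smaller or less stable. Hif1a was lower at 100 µg/ml at 2 h, with 136, 127 and 141 CPM against 165, 179 and 169.8 CPM at 1 µg/ml, a log2 difference of -0.35 ± 0.087 that was lost without the second library of either dose, with no filter and when the fit held only the libraries compared. At 24 h Eno1 was lower at 100 µg/ml, at -0.40 ± 0.12, and Bnip3 at -0.47 ± 0.15, and these calls were lost without any of 2 and of 3 of the 6 libraries. Gpi1 was higher at 24 h, at 0.28 ± 0.094, but its call was lost in 5 of 6 cases when a library was left out and under 5 of 6 other settings.

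**Figure D4:**
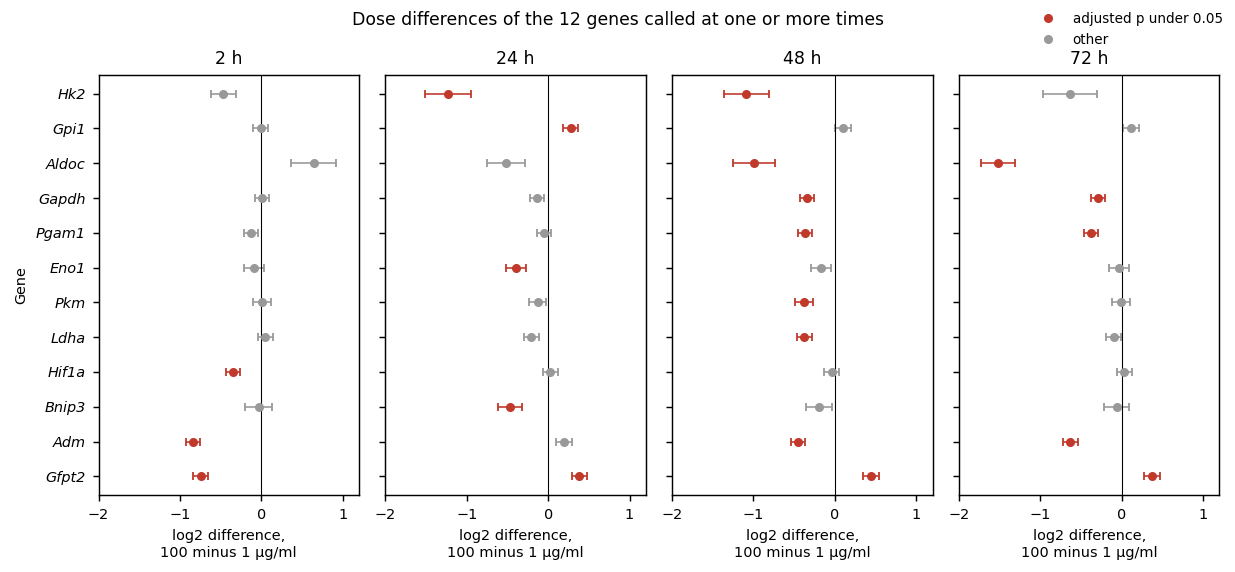
Log2 difference ± SE of 100 minus 1 µg/ml (3 libraries per dose) at 2, 24, 48 and 72 h for the 12 genes called at 1 or more times, red where the adjusted p was under 0.05. Gfpt2 is left of 0 at 2 h and right of 0 later, Adm is left of 0 at 2, 48 and 72 h, and Aldoc moves left with time.

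Between 10 and 1 µg/ml, none of the 37 genes was called by edgeR at any time, and DESeq2 called 0 as well. At an unadjusted p under 0.05 there were 4 genes at 2 h, 2 at 24 h, 2 at 48 h and 0 at 72 h. Over all tested genes, 0.804% were called higher and 0.0347% lower at 2 h, 0.0416% and 0.00694% at 24 h, 0.208% and 0% at 48 h, and 0% and 0% at 72 h. Without replicate 3 of 1 µg/ml at 24 h, 1 gene was called at that time, P4ha1, lower at 10 µg/ml at -0.50 (adjusted p = 0.0305). The comparisons of 10 and of 100 with 1 µg/ml share the libraries of 1 µg/ml.

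Compared between neighbouring times within C1q-treated cells, lower calls were most numerous between 2 and 24 h and higher calls between 48 and 72 h. At 24 h, 24 of the 37 genes were lower and 5 higher than at 2 h, where 28.6% and 29.3% of all tested genes were, so lower calls were more frequent and higher calls less frequent than over all genes. Hk2 and Slc2a1 changed most, with log2 differences of -2.73 ± 0.12 and -1.27 ± 0.072 and no overlap between the 9 libraries of each time. The 5 that were higher were Pfkm, Aldoc, Ldhb, Bnip3 and Bnip3l, by 0.44 to 0.59. Among the 24 that were lower were Eno1 at -1.06 ± 0.071, Hif1a at -0.74 ± 0.052, Gfpt2 at -0.73 ± 0.053 and Egln3, a prolyl hydroxylase induced by HIF, at -0.88 ± 0.22. The call of Eno2 was lost without any of 8 of the 18 libraries. Between 24 and 48 h, 8 were lower and 5 higher, against 12.1% and 12.8% of all, and Gapdh was among the 8, at -0.53 ± 0.05.

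From 48 to 72 h, 14 of the 37 genes were higher and 2 lower, against 8.38% and 8.27% of all tested genes, so the share of higher calls was well above the background. Ldha rose by 0.44 ± 0.054 (adjusted p = 2e-08), with 274 to 378 CPM at 72 h and 183 to 273 CPM at 48 h. Slc16a3 rose by 0.61 ± 0.11, Eno1 by 0.40 ± 0.071, Pgk1 by 0.33 ± 0.054, Aldoa by 0.37 ± 0.064 and Pkm by 0.35 ± 0.064. The 2 that fell were Adm and Hk2, the second with a log2 difference of -0.77 ± 0.17. The rise of Egln1 over this step, 0.22 ± 0.076, lost its call without any of 10 of the 18 libraries.

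Whether the difference of 100 and 1 µg/ml depended on time was called for 3 of the 37 genes, Gfpt2, Adm and Aldoc, and for 6.78% of all tested genes, a share near that of the 37.

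Neighbouring pathways were described with 9 further lists, also made with earlier results of these data known. They give the setting of these genes at 72 h. At that time 23.6% of all tested genes were higher and 25.3% lower than in untreated cells, with a median log2 difference of 0.03. Of 17 genes of the tricarboxylic acid cycle, 15 were lower and 0 higher than in untreated cells, with a median of -0.37. Among them were Cs, citrate synthase, at -0.62 ± 0.079, Idh2, a mitochondrial isocitrate dehydrogenase, at -0.58 ± 0.089, and Sdhb, a succinate dehydrogenase subunit, at -0.55 ± 0.089. Sucla2, a succinyl-CoA ligase subunit, was named for its dose difference at 72 h, -0.35 ± 0.11. Of 9 genes of the pentose phosphate pathway, 6 were lower and 0 higher, and the median was -0.88, with the transketolase Tkt at -1.11 ± 0.072, the transaldolase Taldo1 at -1.06 ± 0.077, Prps1, which makes phosphoribosyl pyrophosphate, at -1.09 ± 0.14 and the isomerase Rpia at -0.92 ± 0.14. Among 13 genes of pyruvate entry into mitochondria, 9 were lower and 3 higher, with a median of -0.43. Pdk2, another pyruvate dehydrogenase kinase, rose by 1.22 ± 0.22, whereas Pdhx, a component of the complex, Pdp2, a phosphatase that activates it, and Pcx, pyruvate carboxylase, stood at -0.74 ± 0.13, -0.56 ± 0.19 and -0.99 ± 0.20. Of 18 genes of fatty acid oxidation and targets of PPAR, 8 were higher and 3 lower, against 23.6% and 25.3% of all tested genes, and the median was 0.16. The higher ones included Cpt1a, which admits fatty acids to mitochondria, at 0.61 ± 0.095, the carnitine carrier Slc25a20 at 0.63 ± 0.09, the thiolase Acaa2 at 0.47 ± 0.085 and Ucp2, an uncoupling protein, at 0.62 ± 0.14. Between 100 and 1 µg/ml at 72 h, 4 of the 17 genes of the tricarboxylic acid cycle were lower, where 6.51% of all tested genes were, and Ucp2 and Acaa2 stood at -0.68 ± 0.16 and 0.54 ± 0.098.

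Other glycolysis and hypoxia genes were mixed at 72 h, when 25.3% of all tested genes were lower and 23.6% higher. Of 18 tested glycolysis and sugar genes that are not among the 37, 7 were lower and 2 higher at 72 h and the median was -0.02, with the galactokinase Galk1 at -0.63 ± 0.099, the phosphoglucomutase Pgm2 at -0.65 ± 0.13 and Eno3, the muscle enolase, higher at 0.91 ± 0.11. Of 25 other hypoxia-induced genes, 11 were lower, a share above that of all tested genes, and 7 were higher, a share near it. Stc2, a secreted glycoprotein gene, stood at -0.94 ± 0.17. Selenbp1, a selenium-binding protein with methanethiol oxidase activity, rose by 1.01 ± 0.09 and was higher at 100 than at 1 µg/ml after 72 h by 1.40 ± 0.098, while the lysyl hydroxylase Plod1 was higher by 0.87 ± 0.14 in the same comparison. The median log2 difference of the 25 genes at 72 h was -0.06.

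Of the HIF regulators, 8 of 9 were tested, with a median of -0.04 at 72 h. At this time Vhl, the ubiquitin ligase subunit that recognises hydroxylated HIF, was higher at 0.41 ± 0.14 and Arnt2, a HIF partner, lower at -0.66 ± 0.24. Cited2, an inhibitor of HIF co-activation, and Siah2, a ligase that targets the prolyl hydroxylases, rose at 2 h, by 0.74 ± 0.10 and 0.77 ± 0.22, and Siah2 was higher at 100 than at 1 µg/ml at that time by 0.89 ± 0.25. Epas1, Arnt, Hif1an and Egln2 stood at 0.07, 0.23, -0.11 and 0.03 at 72 h and were not called, and Hif3a did not pass the filter on low counts.

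Of 11 genes of the hexosamine pathway beyond its entry, 5 were lower and 1 higher at 72 h, with a median of -0.19. Of all tested genes, 25.3% were lower and 23.6% higher at that time. Uap1l1, a paralogue of the enzyme that makes UDP-N-acetylglucosamine, was lower at 100 than at 1 µg/ml, at -1.41 ± 0.15 at 24 h and -0.61 ± 0.14 at 72 h, the opposite sign to Gfpt2 at these times. Amdhd2, which returns N-acetylglucosamine-6-phosphate towards glycolysis, was lower as well at 72 h, at -0.52 ± 0.14, and Pgm3 and Gnpda1 were below untreated cells, at -0.54 ± 0.13 and -0.53 ± 0.15. Among 8 other collagen-modifying genes, 3 were higher and 1 lower, against 23.6% and 25.3% of all tested genes, and the median was 0.05. P4ha3, a further collagen prolyl 4-hydroxylase subunit, rose by 0.70 ± 0.11 where P4ha2 fell, and it was lower at 100 than at 1 µg/ml, at -0.79 ± 0.12. The prolyl 3-hydroxylase P3h3 rose by 1.04 ± 0.16, the collagen galactosyltransferase Colgalt1 stood at -0.48 ± 0.079, and the collagen chaperone Ppib differed by -0.41 ± 0.097 between 100 and 1 µg/ml.

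**Figure D5:**
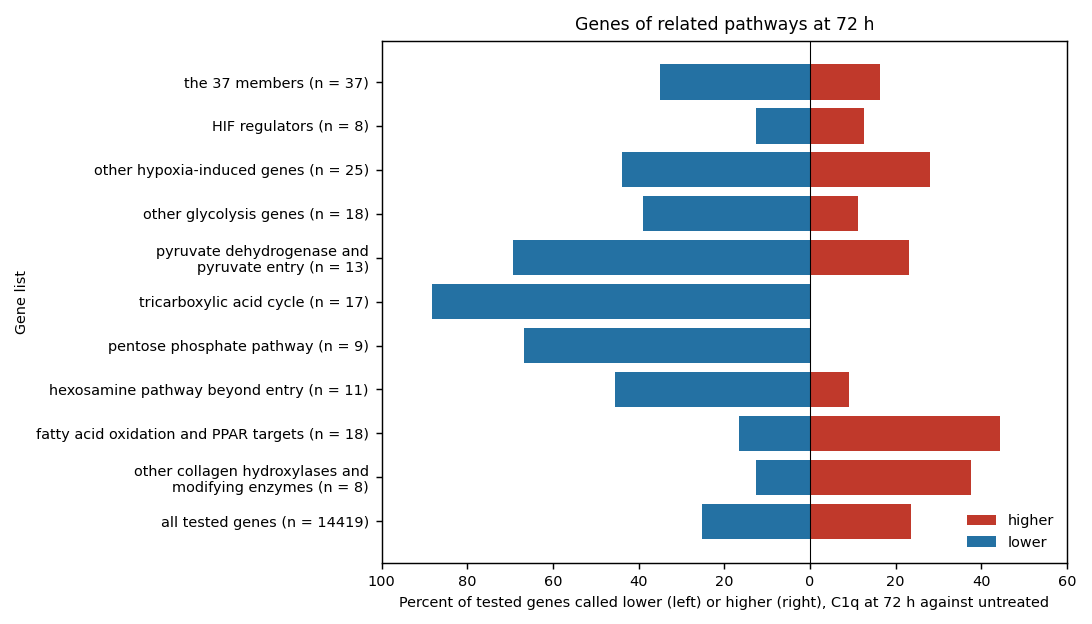
Percent of the tested genes of each list called higher (right, red) or lower (left, blue) in C1q-treated cells at 72 h (mean of 3 doses) than in untreated cells, with all 14419 tested genes as the last bar. The bars of the tricarboxylic acid cycle (15 of 17) and the pentose phosphate pathway (6 of 9) lie wholly to the left, and that of fatty acid oxidation reaches farther right, with 8 of 18 higher.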

How the data were processed

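RNA 5′ ends were sequenced from 39 libraries of mouse lung fibroblasts, and the authors deposited 1 table of raw counts per gene for all of them. The submitters' processing notes name cutadapt 2.1.0, Bowtie2 2.4.2 and the build GRCm38, while the counting program, its strand setting and its annotation were not given in any source used here. Columns were matched to samples by name. Of these, 9 are spelled differently from the sample titles and were matched by serial number, and 0 columns of other samples were left unused. Library totals of 1806106 to 3012518 counts limit the precision of genes with few counts.

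Counts were tested with edgeR 4.0.16 (limma 3.58.1, R 4.3.3) in 1 quasi-likelihood fit of 13 group means, after the default expression filter (minimum count 10, minimum total 15) and scaling by the trimmed mean of M values. The filter left 14419 genes with 99.4% of the counts. The Benjamini-Hochberg adjustment ran over all of these genes within each of 16 comparisons. These were the mean of the 3 doses against untreated cells at each time, 100 and 10 against 1 µg/ml at each time, neighbouring times, and the interaction of dose and time. The calculation was tested on simulated counts. Alternatives were DESeq2 1.42.0, relative log expression scaling, no filter, other thresholds, other dose contrasts, fewer libraries and leaving out each library.

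The members and all lists were chosen with earlier results of these data known. All 37 members are named. From each further list, up to 4 called genes with a mean log2 CPM of at least 3 are named, those with the largest difference between 100 and 1 µg/ml at 72 h first and then against untreated cells at 72 h, and all HIF regulators. Some genes that this rule names are not reported here. Cited2 and Siah2 at 2 h and Uap1l1 at 24 h were singled out after their values were seen. Promoter windows came from RefSeq and figures were drawn with matplotlib 3.10.9 in Python 3.11.15.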

Additional observations from a re-analysis of the deposited data

Results flagged for a closer look

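For 3 of the 37 genes the difference between 100 and 1 µg/ml depended on time in edgeR's test of the interaction. That test called 6.78% of all tested genes, a share near that of the 37. Gfpt2 (adjusted p = 2.17e-09) was lower at 100 µg/ml at 2 h and higher at 24, 48 and 72 h. Adm (adjusted p = 1.28e-06) was lower at 2, 48 and 72 h, while at 24 h the doses overlapped. Aldoc (adjusted p = 0.000377) had a log2 difference that changed by -1.63 ± 0.38 between 2 and 48 h and by -2.16 ± 0.35 between 2 and 72 h. With 3 libraries per group, no single library was tested as an outlier.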

How the results depend on the processing

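Counts of the 37 genes called were within 1.5 times the reported count under DESeq2, relative log expression scaling, no filter and without the row LOC118568312, in all comparisons with a reported call. A log2 difference of at least 1 left 2, 3, 6 and 3 genes against untreated cells at 2, 24, 48 and 72 h, 0, 1, 1 and 1 between 100 and 1 µg/ml, and 3, 1 and 0 between neighbouring times. Between 100 and 1 µg/ml at 24 h, 2 genes were left at an adjusted p under 0.01, and 2 when only the libraries compared were fitted. At 48 h, leaving out the 9 differently spelled columns leaves 1 µg/ml with 1 library that is assumed to vary like the other groups. That fit cannot tell whether the calls at 48 h hold. Comparisons with 24 h could not be fitted without those columns. Against the mean of 1 and 10 µg/ml, 100 µg/ml differed in 6 genes at 2 h, and the interaction in 5. Against untreated cells at 2 h, 100 µg/ml alone differed in 3. For these other thresholds, dose contrasts and smaller fits, shares over all tested genes are not given here. Their counts describe the 37 genes alone. Gfpt2 at 48 h, at -0.01 for the mean of the doses, was higher by 0.31 at 100 µg/ml alone (adjusted p = 0.00811). The cause of these shifts was not tested.

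Leaving out 1 library at a time gave 5 to 8, 19 to 22, 20 to 21 and 17 to 19 genes against untreated cells, 2 to 5, 2 to 5, 5 to 9 and 3 to 5 between 100 and 1 µg/ml, 0 to 1 between 10 and 1 µg/ml at 24 h and 0 at the other times, 28 to 29, 12 to 15 and 14 to 17 between neighbouring times, and 3 to 4 for the interaction. No paired analysis was possible because the labels give the groups no shared replicate numbers. Genes with few counts, such as Ankrd37, Slc2a3 and Egln3, are limited by depth.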
